A study of Mus musculus with 20 samples.

Results

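The genes described here are the 39 members of the coagulation and fibrinolysis system among the 37681 genes of each deposited count table. They were chosen by symbol, and every symbol matched exactly 1 row in each of the 6 tables. A gene was tested if any table had it at 5 reads or more in 5 or more of the 10 libraries, which left 15578 genes. All 39 members were among them, and all 39 met that minimum within each table. The list holds 18 procoagulant genes, 2 enzymes of the vitamin K cycle, 12 anticoagulant genes and 7 genes of fibrinolysis and its inhibitors.

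The data come from livers of 10 wild-type male C57/B6J mice (strain field C57/BL6) aged 12 weeks, bought from Jackson Labs. Of these, 5 mice (named ILB_9577, ILB_9578, ILB_9579, ILB_9582 and ILB_9583) received the inflammatory cytokine IL-1β at 20 µg/kg by intraperitoneal injection, and 5 (UNT_9574, UNT_9575, UNT_9576, UNT_9580 and UNT_9584) received saline. Values for single mice are given in this order within each group. Livers were taken after 4 hours, so the samples give 1 dose and 1 time, and they measure RNA in whole liver, not protein in plasma. RNA of each mouse was sequenced on the Illumina HiSeq and on the Ion Torrent Proton, and each platform's reads were aligned by 3 routes (GSNAP alone, STAR alone, and STAR combined with Bowtie2), which gives 6 tables of 10 libraries.

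Blood clots when tissue factor meets factor VII, and a chain of serine proteases then leads to thrombin, which cuts fibrinogen into fibrin. Hepatocytes make most of the circulating clotting factors and their inhibitors, while the endothelium carries several anticoagulant receptors, and plasmin dissolves the clot. Fibrinogen is a classical acute phase protein of the liver, known to rise in inflammation.

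Total counts per library ran from 10568530 to 12008799 in the Illumina tables and from 12199528 to 16439683 in the Ion Torrent tables. In every table all IL-1β libraries had lower totals than all saline libraries. With GSNAP these were 11203762 to 11299651 against 11539468 to 11727437 on the Illumina. On the Ion Torrent they were 14499101 to 14622135 against 14851983 to 15113883. Deposited counts, given below for single mice, are not corrected for this. The 2 libraries of a mouse deviated together from their group, with a correlation across genes of 0.547 to 0.721 in 9 mice and of 0.199 to 0.248 in saline mouse UNT_9584. Marker genes of the liver's cell types showed hepatocyte RNA at high levels and changes in other cell types. All 5 hepatocyte markers (Alb, Ttr, Apoa1, Cps1 and Asgr1) had a negative log2 fold change, between −0.89 and −0.31, and 3 of them passed the test. Their summed level was 84256 to 104605 CPM (counts per 1000000) in saline and 60283 to 73358 in IL-1β mice. Most of this sum was Alb, with 873460 to 1057456 reads in saline mice and 549496 to 653443 in IL-1β mice. No other hepatocyte marker passed 100538 reads on the Illumina. The part of this summed level in the lower values of hepatocyte factors was not tested. Of the 6 neutrophil markers, 5 were tested and all 5 rose. The summed level of the 6 went from 1.004 to 2.38 CPM in saline mice to 45.0 to 97.5 in IL-1β mice. Ly6g, which was not tested, had at most 3 reads in any Illumina library. With GSNAP on the Ion Torrent, Ly6g had 2, 6, 6, 6 and 8 reads in saline mice and 3, 1, 2, 4 and 2 in IL-1β mice. In whole liver, fewer cells of a type and less RNA per cell cannot be told apart.

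Coagulation genes responded in both directions. In the Illumina GSNAP table, edgeR's quasi-likelihood test with Benjamini-Hochberg adjustment called 11 members higher (28.2%) and 17 lower (43.6%) with IL-1β at an adjusted p below 0.05, where 23.7% and 23.9% of all genes tested were called. The Ion Torrent GSNAP table gave 10 higher and 16 lower, against 22.5% and 23.9% of all genes. The 10 members called higher in all 6 tables (25.6%, against 17.3% of all genes) were Fga, Fgb, Fgg, F13a1, Procr, Thbd, Serpina5, Serpina10, Plaur and Cpb2. The 13 members called lower in all 6 tables (33.3%, against 17.6%) were F3, F5, F7, F8, F11, F13b, Proz, Serpind1, Klkb1, Hrg, Vwf, Adamts13 and Vkorc1. A further 6 were called in some tables and 10 in none. Here and below, a call without a named tool is edgeR's after TMM scaling. With an absolute log2 fold change above 1 in the Illumina GSNAP table as well, 9 members were higher (23.1% of the 39, against 6.89% of all genes tested) and 3 lower (7.69%, against 7.53%). In that table the saline mice alone would not bring F13a1, Procr, Serpina5 and Plaur to the minimum of 5 reads in 5 libraries. The share of members higher thus depends in part on genes that meet this minimum through the IL-1β mice. The median log2 fold change of the 39 members was −0.21 on the Illumina and −0.22 on the Ion Torrent, and that of all genes tested was 0 in both.

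**Figure D1:**
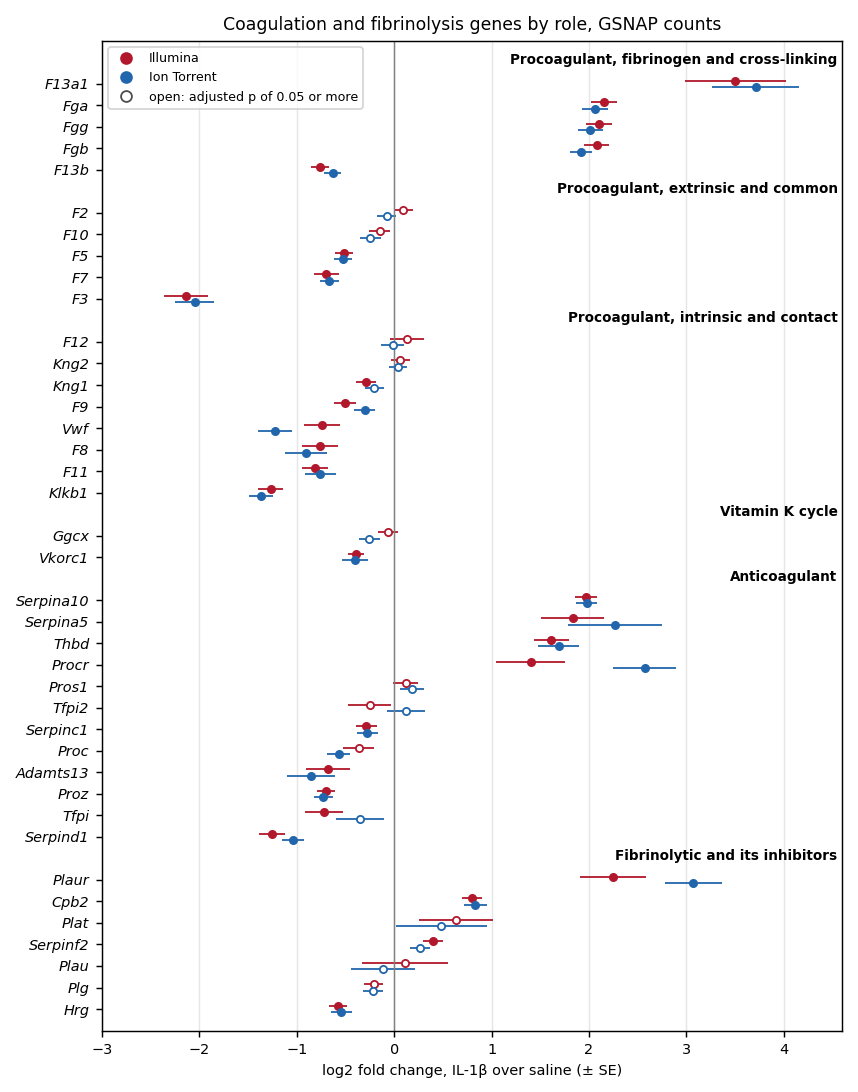
Log2 fold change of IL-1β over saline for each of the 39 members, grouped by role, from the GSNAP counts of the Illumina (red) and the Ion Torrent (blue), with bars of 1 SE and open symbols where the adjusted p was 0.05 or more. Fibrinogen, factor XIII A, 4 anticoagulant genes and Plaur lie far to the right, and F3, Klkb1 and Serpind1 lie farthest to the left on the Illumina.

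In the rank-sum test that the study used, 9 members were higher and 19 lower in the Illumina GSNAP table at a q below 0.05, where 14.3% and 25.7% of all genes were. This test ran on the deposited counts without TMM scaling, whose totals were lower in every IL-1β library than in every saline library. In contrast to edgeR, it called F10 and Plg lower in all 6 tables and F2, Kng1 and Ggcx lower in all 3 Ion Torrent tables, and it did not call Serpinf2 in any table. The deposited counts of the 5 IL-1β mice and the 5 saline mice did not overlap for 25 of the 39 members in that table, against 35.0% of all genes tested.

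All 3 fibrinogen genes rose in all 6 tables, by 3.78-fold to 4.46-fold. Fibrinogen consists of an α, a β and a γ chain, encoded by Fga, Fgb and Fgg, which lie next to each other on chromosome 3. In the Illumina GSNAP table, Fga had 67692, 52288, 53553, 62255 and 61724 reads in the saline mice and 230801, 284260, 218870, 206095 and 237096 reads in the IL-1β mice. The lowest IL-1β mouse therefore had over 3 times the reads of the highest saline mouse. Fgb had 57628, 43994, 48073, 53133 and 47562 reads in saline mice and 179766, 221163, 180775, 165591 and 190423 in IL-1β mice. Fgg had 44046, 35419, 36911, 42125 and 42626 reads in saline mice and 142822, 181714, 154509, 137316 and 150173 in IL-1β mice. The highest value of each chain was that of mouse ILB_9578, and no chain's groups overlapped.

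The 3 chains moved by nearly the same factor. The fold change was 4.45 for Fga (log2 2.15 ± 0.14 SE), 4.22 for Fgb (2.08 ± 0.13) and 4.29 for Fgg (2.10 ± 0.13), with adjusted p-values of 2.28e-08, 1.73e-08 and 1.77e-08 by edgeR. Over the 6 tables the log2 fold changes stayed between 1.92 and 2.16. The share of Fga in the reads of the 3 chains was 39.7% ± 0.7 (SD, n = 5) in saline and 40.8% ± 0.9 in IL-1β mice. Fgb held 33.4% ± 1.3 and 32.6% ± 0.3 of them, and Fgg 26.9% ± 0.7 and 26.6% ± 0.8. The ranges of both groups overlapped for each of these shares. On the Ion Torrent, the share of Fgb was 29.1 to 29.9% in saline and 26.4 to 28.7% in IL-1β mice, which do not overlap.

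Fibrinogen took a visible part of the whole library. Fga alone was 0.511% ± 0.058 of all gene counts in saline and 2.09% ± 0.27 in IL-1β mice on the Illumina (exact two-sided permutation test over 5 and 5 mice, p = 0.00794, the smallest such a design allows). Fgb went from 0.430% ± 0.048 to 1.67% ± 0.19 and Fgg from 0.345% ± 0.034 to 1.36% ± 0.16, with the same exact p. Together the chains made up 1.13 to 1.47% of the counts in saline mice and 4.54 to 6.13% in IL-1β mice. On the Ion Torrent these sums were 1.22 to 1.56% and 4.46 to 6.28%. The other 36 members together made up 1.499% ± 0.061 of the counts in saline and 1.27% ± 0.05 in IL-1β mice on the Illumina. The members' total share of a library thus went from 2.79% ± 0.17 to 6.39% ± 0.59.

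**Figure D2:**
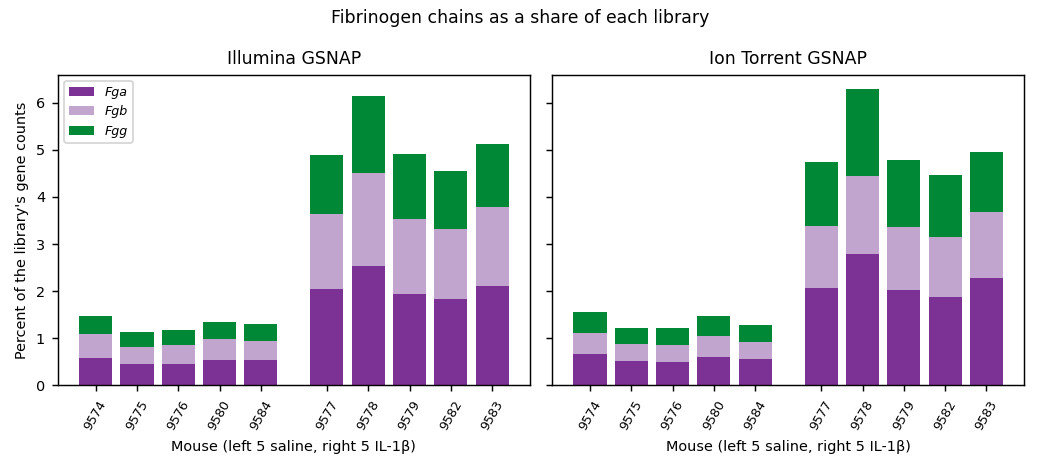
Share of each library's gene counts that fell on Fga, Fgb and Fgg, in percent, by mouse, for the GSNAP tables of both platforms. The 5 saline mice stand between 1.13 and 1.56% in total, the 5 IL-1β mice between 4.46 and 6.28%, and mouse ILB_9578 is highest on both platforms.

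Since the 3 chains moved together, their promoter windows are shown, from 250 bases before to 50 after the start of transcription (RefSeq, GRCm38.p6, written 5′ to 3′ on the gene's strand). The windows are chr3:83025903-83026202 (plus strand) for Fga, chr3:83049814-83050113 (minus strand) for Fgb and chr3:83007474-83007773 (plus strand) for Fgg. Capitals mark matches, on either strand, to 4 short motifs of factors known from the acute phase response. These are TTCNNNGAA for STAT factors, CTGGGAA for the core of IL-6 response elements, TTGCNNAA for C/EBP factors and GGGNNTTCC for NF-κB.
Fga: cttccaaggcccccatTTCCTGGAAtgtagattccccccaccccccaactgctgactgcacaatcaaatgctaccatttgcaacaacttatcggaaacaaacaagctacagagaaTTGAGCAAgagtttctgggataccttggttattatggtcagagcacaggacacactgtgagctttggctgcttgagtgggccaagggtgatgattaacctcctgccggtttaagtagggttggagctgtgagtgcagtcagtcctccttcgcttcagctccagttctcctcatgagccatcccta
Fgb: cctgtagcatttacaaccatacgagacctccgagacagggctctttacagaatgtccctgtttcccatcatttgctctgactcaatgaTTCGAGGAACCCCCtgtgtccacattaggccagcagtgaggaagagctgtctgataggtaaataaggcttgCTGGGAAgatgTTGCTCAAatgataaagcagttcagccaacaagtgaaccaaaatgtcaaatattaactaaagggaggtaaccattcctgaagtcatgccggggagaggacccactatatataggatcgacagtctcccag
Fgg: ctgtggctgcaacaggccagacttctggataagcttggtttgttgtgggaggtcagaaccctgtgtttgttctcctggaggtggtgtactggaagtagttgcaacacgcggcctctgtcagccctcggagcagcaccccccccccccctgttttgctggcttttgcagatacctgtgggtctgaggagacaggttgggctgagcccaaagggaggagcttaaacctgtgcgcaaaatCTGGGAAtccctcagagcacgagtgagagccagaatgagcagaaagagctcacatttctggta

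Fga held a STAT-like match, TTCCTGGAA, and a C/EBP-like match on the minus strand, read TTGAGCAA here. Fgb held all 4, and its STAT-like match TTCGAGGAA overlaps its NF-κB-like match on the minus strand, read GGAACCCCC here. Fgg held only the IL-6 core, CTGGGAA, which starts 13 bases before the start site. Windows were given for 31 of the 39 members, with 35 windows in all. A member is counted if any of its windows matched, while the background is per window, so the 2 are not like for like. The C/EBP-like motif was in windows of 13 of these 31 members and in 10.8% of all 32851 windows of this length. The STAT-like motif was in windows of 4 members (8.30% of all windows), the IL-6 core in those of 7 (11.1%), and the NF-κB-like motif in those of 2 (5.82%). Members with the C/EBP-like motif include genes that rose (Fga, Fgb, Procr, Serpina5, Plaur and Cpb2) and genes that fell (F11, Klkb1 and Hrg). A match of letters is not a bound site.

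Factor XIII cross-links fibrin and stabilises the clot, and its A and B subunits moved in opposite directions. F13a1, the catalytic A subunit, known from macrophages and platelets, had 5, 2, 0, 1 and 5 reads in saline mice and 37, 41, 14, 32 and 13 in IL-1β mice on the Illumina. The groups did not overlap, but the saline level rests on very few reads. The log2 fold change was 3.50 ± 0.52 (adjusted p = 6.70e-05 by edgeR), and it lay between 3.46 and 4.04 over the 6 tables. Of the platelet markers, Pf4 rose (1.42 ± 0.50), Itga2b did not pass the test on the Illumina and was lower in the Ion Torrent GSNAP table (−0.58 ± 0.23, adjusted p = 0.0454), and the other 4 had too few reads to be tested. The summed level of the 6 platelet markers was 2.61 to 4.27 CPM in saline and 1.86 to 5.04 in IL-1β mice. The part of these cells in the F13a1 result was not tested. F13b, the carrier B subunit made by hepatocytes, had 2183 to 2763 reads in saline and 1204 to 1380 in IL-1β mice, a log2 fold change of −0.76 ± 0.10 (adjusted p = 1.62e-05).

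The enzymes and cofactors of the extrinsic and common pathway fell or were not called by edgeR, and none of the 5 rose. F3, F5 and F7 were called lower in all 6 tables, where 17.6% of all genes tested were, and 17.3% were called higher. F3, tissue factor, which starts coagulation, showed the steepest fall of all members. It had 69, 60, 55, 56 and 88 reads in saline mice and 15, 16, 8, 12 and 15 reads in IL-1β mice on the Illumina. The highest IL-1β mouse had 16 reads and the lowest saline mouse 55. The level in IL-1β mice was 22.7% of that in saline mice (log2 −2.14 ± 0.23, adjusted p = 3.14e-06), and on the Ion Torrent it was 24.2%, with 54 to 88 and 15 to 21 reads.

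F7, the protease that tissue factor binds, had 1045, 1188, 1218, 1106 and 775 reads in saline and 657, 469, 573, 518 and 695 reads in IL-1β mice. The closest values, 775 in mouse UNT_9584 and 695 in mouse ILB_9583, did not overlap, and the log2 fold change was −0.70 ± 0.13 (adjusted p = 0.000431). F5, the cofactor of factor X, fell by 0.52 ± 0.09 on the log2 scale (adjusted p = 0.000277), from 8291 to 9328 reads in saline mice to 4853 to 6060 in IL-1β mice. Part of the F5 gene is overlapped by other annotated genes, Gm16548 and Gm16588.

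F2, prothrombin, was called by edgeR in none of the 6 tables. On the Illumina it had 18753, 18431, 20651, 21324 and 16107 reads in saline mice and 18862, 16925, 17599, 17485 and 19260 in IL-1β mice, so that all IL-1β mice lie within the range of the saline mice. Its log2 fold change was 0.09 ± 0.10 on the Illumina and −0.08 ± 0.10 on the Ion Torrent, and it is also negative on the Illumina without TMM scaling (−0.03). On the Ion Torrent the deposited counts did not overlap, at 36598 to 38310 and 28701 to 34425 reads, and the rank-sum test called F2 lower there (q = 0.0303). F10, which turns prothrombin into thrombin, was called by edgeR in no table, with log2 fold changes of −0.15 ± 0.105 and −0.24 ± 0.109, but lower by the rank-sum test in all 6 (q = 0.0395 in the Illumina GSNAP table).

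**Figure D3:**
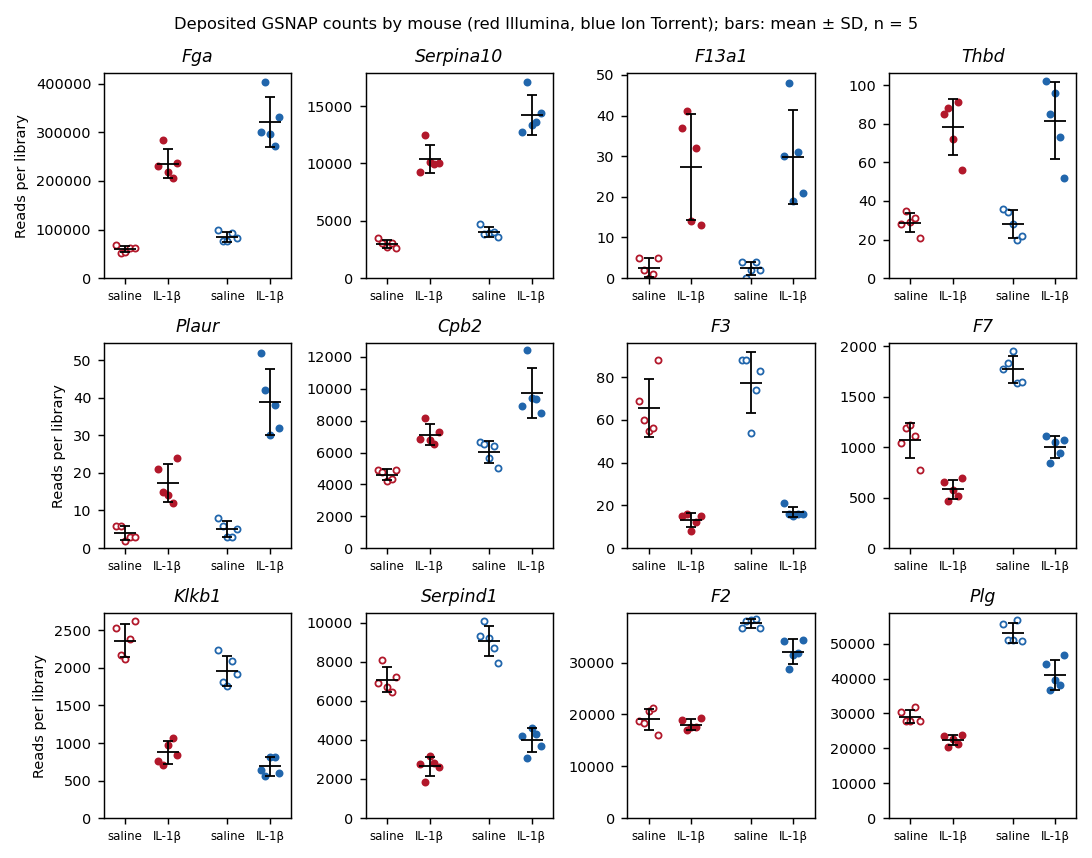
Deposited GSNAP read counts of 12 members in each mouse, with open circles for saline, filled circles for IL-1β, red for Illumina, blue for Ion Torrent, and bars of the mean ± SD of 5 mice. Groups of Fga, Serpina10, F13a1, Thbd, Plaur, Cpb2, F3, F7, Klkb1 and Serpind1 are separate on both platforms, while the Illumina values of F2 overlap. Plg counts are separate as deposited, but its TMM-scaled Illumina counts overlap, and edgeR did not call it.

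No gene of the intrinsic and contact pathway was called higher. Of its 8 members, 6 were called lower on the Illumina and 4 or 5 on the Ion Torrent, where 23.9% of all genes were called lower in each GSNAP table, and 4 of these (F8, F11, Klkb1 and Vwf) were called lower in all 6 tables. Klkb1 encodes plasma prekallikrein, the protease of the contact system that also releases bradykinin. It had 2531, 2172, 2113, 2385 and 2627 reads in saline mice and 766, 709, 980, 1073 and 841 in IL-1β mice. The groups were far apart, with 1073 reads in the highest IL-1β mouse and 2113 in the lowest saline mouse, at a log2 fold change of −1.27 ± 0.13 (adjusted p = 2.26e-06). Klkb1 overlaps Cyp4v3 on the same strand at 1 end. F11, the factor XI gene next to it, fell by 0.81 ± 0.13 on the log2 scale (adjusted p = 0.000166), with 810 to 1121 reads in saline and 347 to 591 in IL-1β mice.

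F8 and Vwf encode a cofactor and its carrier, both known from endothelium. F8 had 103 to 157 reads in saline and 55 to 103 in IL-1β mice, so that the groups meet at 103, and a log2 fold change of −0.76 ± 0.18 (adjusted p = 0.00317). The gene is overlapped by Gm6039, Gm8522 and Fundc2. Vwf had 49 to 80 and 27 to 46 reads, with −0.74 ± 0.18 on the Illumina (adjusted p = 0.00360) and −1.22 ± 0.18 on the Ion Torrent. Of the 6 endothelial markers, Kdr, Clec4g and Tek fell, Cdh5 rose, and Pecam1 and Stab2 did not pass the test on the Illumina, with log2 fold changes from −1.63 to 0.82. Their summed level was 120 to 179 CPM in saline and 74.6 to 129 in IL-1β mice. The part of endothelial RNA in the results for F8 and Vwf was not tested.

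F9, factor IX, was called lower in 5 of 6 tables (log2 −0.50 ± 0.11 on the Illumina and −0.30 ± 0.11 on the Ion Torrent with GSNAP). The Ion Torrent GSNAP call of F9 was lost without mouse ILB_9577, ILB_9583, UNT_9575, UNT_9580 or UNT_9584. With STAR on the Ion Torrent, where its adjusted p was 0.0629, its mean count was 67.1% of that with GSNAP, the lowest such share of any member. F12, factor XII, was called in no table, with 0.13 ± 0.18 and −0.02 ± 0.12. Kng1 and Kng2 are copies of the kininogen gene with similar sequence, so reads could be assigned to either. Kng1 was called lower by edgeR in the 3 Illumina tables (−0.29 ± 0.10 with GSNAP, adjusted p = 0.0292) and in no Ion Torrent table (−0.20 ± 0.10 with GSNAP), and the Illumina call was lost without IL-1β mouse ILB_9577 or ILB_9582 or saline mouse UNT_9580 or UNT_9584 (adjusted p from 0.0510 to 0.0693). The rank-sum test called Kng1 lower in all 6 tables (q = 0.0306 and 0.0303 with GSNAP). Kng2 was called in none, at 0.06 ± 0.09 and 0.04 ± 0.09.

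Among the vitamin K cycle enzymes, Vkorc1, the target of warfarin, fell by 0.39 ± 0.08 on the log2 scale (adjusted p = 0.00144), from 1302 to 1416 reads to 804 to 1051. It overlaps Prss53 on the same strand, and its Ion Torrent GSNAP call was lost without IL-1β mouse ILB_9579 or ILB_9582 or saline mouse UNT_9584. Ggcx, the carboxylase that uses vitamin K, was called by edgeR in no table (−0.07 ± 0.10 and −0.25 ± 0.11), and lower by the rank-sum test in the 3 Ion Torrent tables (q = 0.0303 with GSNAP). Of the members whose proteins this carboxylase modifies, F7 and Proz fell in all 6 tables, F9 in 5 and Proc in 3, and F2, F10 and Pros1 were called in none by edgeR. Among all genes tested, 17.6% were called lower in all 6 tables.

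The 12 anticoagulant genes split, with 4 higher and 5 lower on the Illumina, where 23.7% and 23.9% of all genes were. Thbd and Procr, thrombomodulin and the endothelial protein C receptor, together present protein C for activation by thrombin. Thbd had 28, 35, 29, 31 and 21 reads in saline mice and 85, 88, 72, 91 and 56 in IL-1β mice. The lowest IL-1β value, 56, was above the highest saline value, 35, and the log2 fold change was 1.61 ± 0.18 (adjusted p = 4.08e-06). Procr had 6, 10, 3, 6 and 7 reads in saline mice and 19, 25, 12, 11 and 9 in IL-1β mice, which overlap at 9 and 10 reads (1.40 ± 0.36, adjusted p = 0.00479, rank-sum q = 0.0504). After TMM scaling these counts did not overlap. On the Ion Torrent, Procr had 2 to 6 and 19 to 34 reads, with no overlap and a log2 fold change of 2.57 ± 0.32. Both are known from endothelium, whose markers are given above with F8 and Vwf, and the part of endothelial RNA in these results was not tested.

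Serpina10 and Serpina5 are serine protease inhibitors. Serpina10, the protein Z-dependent inhibitor of factor X, had 3493, 3022, 2726, 3086 and 2645 reads in saline mice and 9215, 12505, 10159, 9925 and 10071 in IL-1β mice. The groups lay far apart, at a fold of 3.91 (log2 1.97 ± 0.11, adjusted p = 9.48e-09), the smallest adjusted p of any member in this table, and the log2 fold changes of the 6 tables lay between 1.969 and 1.997. Its cofactor Proz, protein Z, went the other way, from 3003 to 3875 reads to 1688 to 2088 (−0.70 ± 0.09, adjusted p = 2.45e-05). Serpina5, the protein C inhibitor, had 4, 4, 3, 2 and 3 reads in saline mice and 14, 12, 9, 7 and 10 in IL-1β mice. It was grouped here with the anticoagulant genes, although protein C itself is in that group. Every IL-1β mouse was above every saline mouse, at levels of a few reads (1.83 ± 0.32, adjusted p = 0.000290), while on the Ion Torrent the groups overlapped, at 1 to 8 and 6 to 26 reads (2.27 ± 0.49, rank-sum q = 0.0530).

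Serpind1, heparin cofactor II, an inhibitor of thrombin, fell most among the anticoagulants. It had 6928, 8103, 6705, 6478 and 7242 reads in saline mice and 2777, 1838, 3181, 2826 and 2611 in IL-1β mice. No values overlapped, and the level in IL-1β mice was 42.1% of that in saline mice (log2 −1.25 ± 0.13, adjusted p = 3.22e-06). The gene lies inside Pi4ka on the opposite strand. Per the authors' methods, libraries of both platforms were strand-specific. Strand use in the counting is not given in the sources used here, so reads of the 2 genes may not be told apart. Serpinc1, antithrombin, the anticoagulant with the highest level per length, was called lower in 5 of 6 tables, at −0.29 ± 0.11 on the Illumina (adjusted p = 0.0417), and this call was lost without IL-1β mouse ILB_9577, ILB_9578 or ILB_9582 or saline mouse UNT_9576, UNT_9580 or UNT_9584 (adjusted p from 0.0510 to 0.0972).

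Adamts13, which cleaves von Willebrand factor, had 35 to 75 reads in saline and 25 to 44 in IL-1β mice, groups that overlap (log2 −0.68 ± 0.22, adjusted p = 0.0202). It was called lower in all 6 tables, but on the Illumina not without saline mouse UNT_9576 or UNT_9580 (adjusted p = 0.0581 and 0.0555). Proc, protein C, was called lower in the 3 Ion Torrent tables (−0.57 ± 0.12 with GSNAP, adjusted p = 0.000885) and in none of the Illumina tables (−0.36 ± 0.16, adjusted p = 0.0723). Without saline mouse UNT_9584, whose 3206 reads were the fewest of the saline mice, the Illumina adjusted p was 0.0182, and without IL-1β mouse ILB_9583 it was 0.0417. Tfpi, the tissue factor pathway inhibitor, was called lower in the 3 Illumina tables (−0.72 ± 0.19, adjusted p = 0.00640) and in no Ion Torrent table (−0.35 ± 0.25). Tfpi2 was called in none. Its log2 fold change was −0.25 ± 0.22 on the Illumina and 0.12 ± 0.20 on the Ion Torrent, and saline mouse UNT_9584, at 1112 reads against 515 to 659 in the other saline mice, sets the Illumina sign (0.04 without it). Pros1, protein S, was called in none, at 0.12 ± 0.13 and 0.18 ± 0.13.

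In fibrinolysis, the zymogen and its activators were not called by edgeR in any table, while a receptor and an inhibitor rose. Of the 7 members, Plaur and Cpb2 were called higher and Hrg lower in all 6 tables, where 17.3% and 17.6% of all genes tested were. Plg, plasminogen, had 30334, 27907, 27734, 31762 and 27731 reads in saline mice and 23489, 20490, 22732, 21280 and 23732 in IL-1β mice. The deposited counts do not overlap, but the TMM-scaled counts do. The log2 fold change after TMM scaling was −0.21 ± 0.10 (adjusted p = 0.0954 by edgeR). DESeq2 (adjusted p = 0.0219), limma-voom (0.0296), the rank-sum test (0.0306) and edgeR without TMM (0.00712) called plasminogen lower. Plat, tissue plasminogen activator, had 10, 7, 6, 7 and 6 reads in saline mice and 15, 3, 15, 11 and 6 in IL-1β mice. These overlap (0.64 ± 0.38, adjusted p = 0.192), and without IL-1β mouse ILB_9578 the adjusted p was 0.0476. Plau, urokinase, had 5 to 21 and 3 to 24 reads and no steady sign over the tables (−0.32 to 0.30).

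Plaur, the urokinase receptor, had 6, 6, 2, 3 and 3 reads in saline mice and 21, 15, 14, 12 and 24 in IL-1β mice. The groups were separate at low counts, with a log2 fold change of 2.24 ± 0.34 on the Illumina (adjusted p = 7.67e-05). On the Ion Torrent the reads were 3 to 8 and 30 to 52, and the log2 fold change was 3.07 ± 0.295. The receptor is known from neutrophils and monocytes, some of whose markers moved as well: S100a8, S100a9, Retnlg and Cxcr2 rose by 4.36 to 6.11 on the log2 scale, and Ngp went from 0 reads in every saline mouse to 7 to 30 reads on the Illumina. Ly6g of the same list was not tested, and its Ion Torrent counts, given above, were not higher with IL-1β. Among the macrophage markers Marco rose, Clec4f, Csf1r and Vsig4 fell, and Emr1 and Cd68 did not pass the test, with a summed level of 93.6 to 166 CPM in saline and 53.7 to 128 in IL-1β mice. The part of these cells in the Plaur result was not tested.

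Cpb2, the thrombin-activated inhibitor of fibrinolysis, had 4880, 4785, 4188, 4310 and 4875 reads in saline mice and 6854, 8154, 6762, 6523 and 7297 in IL-1β mice. All 5 IL-1β mice were above all saline mice, and the level rose 1.74-fold (log2 0.80 ± 0.10, adjusted p = 1.47e-05). Serpinf2, the plasmin inhibitor α2-antiplasmin, was called higher in 4 tables (0.40 ± 0.10 on the Illumina, adjusted p = 0.00580, and 0.26 ± 0.11 on the Ion Torrent, adjusted p = 0.0532). Its Illumina counts overlapped as deposited, at 6851 to 9419 and 8701 to 10315 reads, but not after TMM scaling. The rank-sum test, on the deposited counts, called it in no table (q = 0.163 in the Illumina GSNAP table). Hrg, a plasma glycoprotein that binds plasminogen and heparin, fell by 0.57 ± 0.09 on the log2 scale (adjusted p = 0.000154), with 9593 to 10201 reads in saline and 5472 to 6752 in IL-1β mice.

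Levels of the members can be set side by side only per length, as CPM (scaled by TMM) per kilobase of exons. On this scale in saline mice on the Illumina, 17 of 39 members lay at 100 or more and 9 below 1. Fgb led at 2507 ± 258 (SD, n = 5), followed by Fgg at 1689 ± 196 and Fga at 1672 ± 202, a pair that did not differ beyond their spread. Serpinc1 (942 ± 112) and Plg (870 ± 63) came next, also within their spread of each other. F13a1 was lowest at 0.033 ± 0.030, below Serpina5 at 0.121 ± 0.029. Of the 38 steps in this order, 26 were within the sum of the SDs of both neighbours. With IL-1β, Fgb stood at 10584 ± 1223, and Serpina10 moved from the fourteenth place, at 153 ± 14, to the sixth, at 599 ± 77. Serpind1 went from 266 ± 24 to 112 ± 21. Of the 9 members below 1 in saline mice, 7 were called in all 6 tables, at counts from 0 to 91 reads. Thbd, Procr, Plaur, Serpina5 and F13a1 were higher in each table, and Vwf and Adamts13 lower in each. Of all genes tested, 17.3% were called higher and 17.6% lower in all 6. A gene this low in saline can meet the minimum of 5 reads through the IL-1β mice alone, so higher calls at this level depend in part on that minimum. In this table Serpina5 had at most 4 reads in saline mice and 7 to 14 in IL-1β mice. F13a1 had 0 to 5 and 13 to 41 reads, Plaur 2 to 6 and 12 to 24, and Procr 3 to 10 and 9 to 25.

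**Figure D4:**
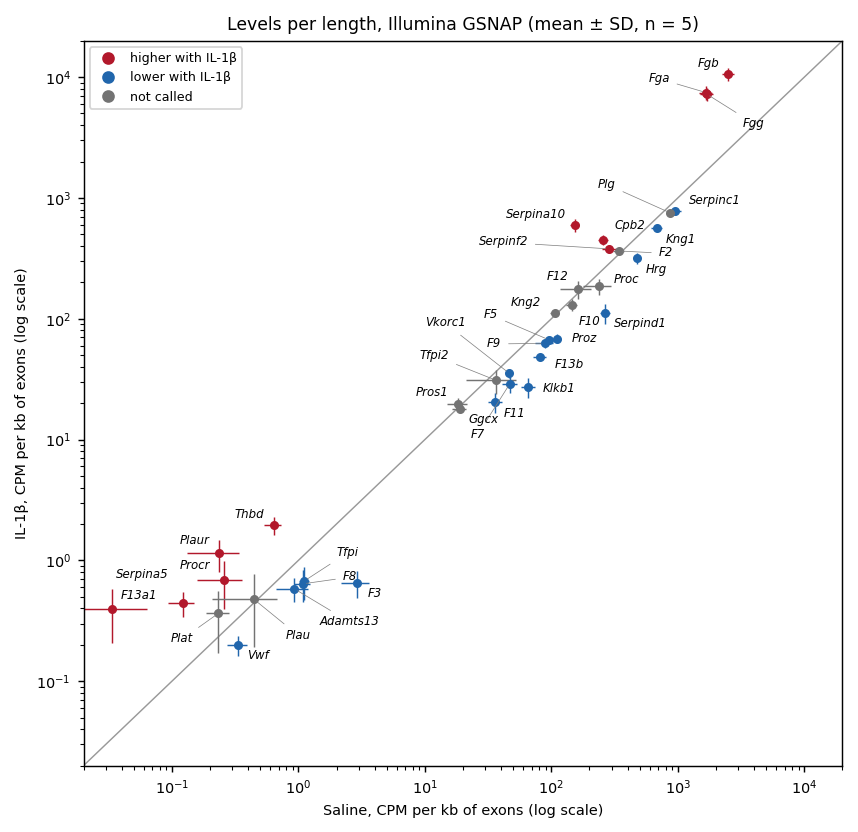
Mean level per length of the 39 members in saline mice (horizontal) and IL-1β mice (vertical) in the Illumina GSNAP table, both on log axes in CPM per kb of exons, with bars of 1 SD of 5 mice and colours for the edgeR call. The 3 fibrinogen genes form the top group, hepatocyte factors cluster between 18 and 950 in saline mice, and the genes below about 3 form a separate low group.

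Several members lie next to each other in the genome. On NCBIM37, Fgg (chromosome 3, 82811781 to 82818975), Fga (82830075 to 82838036) and Fgb (82846169 to 82853725) lie within 27.2 kb of each other, and all 3 rose. On chromosome 8, F7 (13026034 to 13035809) lies 1498 bases before F10 (13037308 to 13056676), which lies 4.23 kb before Proz (13060908 to 13075006). F7 and Proz fell by 0.70 each on the log2 scale, and F10 between them was not called by edgeR (−0.15) but was called lower by the rank-sum test. Reads of F7 per read of F10 were 0.222 ± 0.030 in saline and 0.151 ± 0.009 in IL-1β mice, with ranges of 0.182 to 0.256 and 0.140 to 0.163. Reads of F7 per read of Proz were 0.304 ± 0.038 and 0.303 ± 0.024. These ratios were formed after the values were seen and have no test. F11 (46326524 to 46347385) and Klkb1 (46354796 to 46393820), also on chromosome 8 and 7.41 kb apart, both fell. On chromosome 16, Hrg (22951145 to 22961729) fell, and Kng2 (22985927 to 23029174), 24.2 kb on, was not called. Kng1 (23057938 to 23082141), 28.8 kb past Kng2, was called lower by edgeR in the 3 Illumina tables only, and by the rank-sum test in all 6.

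**Figure D5:**
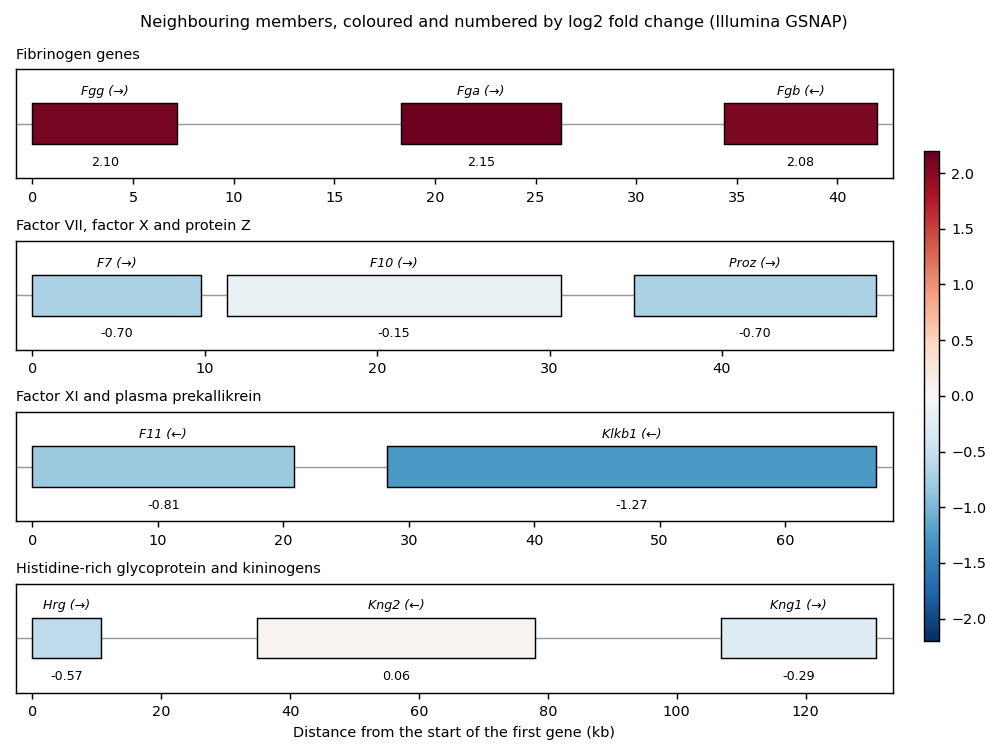
Maps to scale of 4 groups of neighbouring members, as distance in kb from the start of the leftmost gene, with arrows for strand, and boxes coloured and numbered by the log2 fold change in the Illumina GSNAP table. The 3 fibrinogen genes share 1 colour, while F10 at −0.15 stands between F7 and Proz at −0.70.

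Of the other members with large changes, F3 lies on chromosome 3 (121426455 to 121437970), Serpina10 on chromosome 12 (104854885 to 104869654), Thbd, which has a single exon, on chromosome 2 (148230207 to 148233924), F13a1 on chromosome 13 (36959047 to 37142113), Plaur on chromosome 7 (25247519 to 25260892) and Serpind1 on chromosome 16 (17331464 to 17343668). All 39 genes are annotated as protein-coding.

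Most members moved in the same direction on both platforms. Of the 39, 35 had log2 fold changes of 1 sign in all 6 tables, the others being F2, F12, Tfpi2 and Plau, which edgeR called in no table. To ask whether the effect of IL-1β differed between the platforms, both libraries of every mouse (20 per aligner) entered 1 edgeR model with a platform-by-treatment term and the mouse as a block. That term was past an adjusted p of 0.05 for no member with GSNAP, STAR or STAR + Bowtie2, where 0.0642%, 0.00642% and 0.0770% of all genes were. With GSNAP the smallest adjusted p was 0.578. At an unadjusted p below 0.05 there were 9 members with GSNAP by edgeR, 6 by DESeq2 and 10 by limma-voom, and 7.80% of all genes by edgeR, and none passed the adjustment by any of these tools. The 6 with an unadjusted p below 0.05 with all 3 aligners were Fgb, F2, F9, Proc, Tfpi2 and Serpind1. All 3 aligners used the same reads of each platform, so their agreement is not separate evidence of a platform difference. The share of all genes that passed this limit with all 3 aligners was not computed, so these 6 have no background to compare with. For Fgb the effect on the Ion Torrent was 0.17 ± 0.06 lower on the log2 scale (−0.17), and for Serpind1 it was 0.22 ± 0.075 higher, both with an adjusted p of 0.578. The largest difference with GSNAP was that of Procr (1.17 ± 0.48, adjusted p = 0.586).

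The other genes of the pathway, a list of 27, gave 12 higher and 4 lower calls on the Illumina among the 21 that were tested, where 23.7% and 23.9% of all genes were called. Of these, 11 were higher and 4 lower in all 6 tables, against 17.3% and 17.6%, and the median log2 fold change was 0.40. A2m, a broad inhibitor of proteases, had 0 to 5 and 1706 to 3478 reads (9.64 ± 0.33), but the saline counts depended on the table, and with STAR + Bowtie2 they were 79 to 110 reads on the Illumina (4.82 ± 0.20). A2m shares sequence with related genes, and how such reads were split is not given in the sources used here. Thbs1, thrombospondin, rose by 2.34 ± 0.30 on the log2 scale, S100a10, part of a plasminogen receptor, by 1.73 ± 0.17, and Fgl1, a fibrinogen-like protein of the liver, by 1.74 ± 0.17. Gas6, a vitamin K-dependent protein related to protein S, rose by 1.58 ± 0.13. F2r, a thrombin receptor, and Serpine2, a protease inhibitor that acts on thrombin, fell, with log2 fold changes of −1.38 ± 0.15 and −1.21 ± 0.27.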

How the data were processed

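The values deposited by the authors are whole-number counts per gene, in 6 tables of 10 libraries. Per the authors' methods, reads were aligned to mm9 with GSNAP, STAR 2.5.1b, or STAR and Bowtie2 2.2.9, and PORT removed rRNA and mitochondrial reads, counted reads on Ensembl gene models and re-sampled each table to its smallest library, so that libraries are compared within a table only. Whether an Illumina count is a read or a pair, and whether strand was used in counting the strand-specific libraries, are not given in the sources used here. Counts are called reads. All 60 columns were used. Per-mouse values are the deposited counts, while fold changes are scaled by TMM. Scaling by totals alone instead shifts the median log2 fold change, over genes averaging 10 reads or more, to −0.12 on the Illumina and −0.10 on the Ion Torrent (GSNAP tables).

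Each table was fitted with edgeR 4.0.16 (quasi-likelihood test, Benjamini-Hochberg over 15578 genes, R 4.3.3). An adjusted p below 0.05 was a call, and a standard error is the absolute log2 fold change divided by the square root of the test's F. The platform-by-treatment term was fitted with the mouse as a block, since the 2 libraries of a mouse share its RNA. Alternatives were DESeq2 1.42.0, limma-voom (limma 3.58.1), a rank-sum test, RLE or no scaling, 2 other filters, a fold limit, the other aligners and leaving out each mouse. Code was tested on simulated data. Mice are separate animals. Positions and exon lengths are from GENCODE M1 on NCBIM37, in which all 39 genes were found, and the start and end of each gene in the tables lie 250 or 246 bases outside them. Promoter sequences are from RefSeq on GRCm38.p6.

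The members, roles and other lists were chosen with earlier results of these data known. Values for every mouse are given for members called in all 6 tables with an absolute log2 fold change above 1 in the Illumina GSNAP table, and for Fga, Fgb, Fgg, F2, F3, F7, F13a1, Thbd, Plg, Plat, Plaur and Cpb2. Genes of the other list are named if they meet the same limits, except 1 that is not reported here. Plgrkt was not analysed here, and Serpinb2, F2rl2, F2rl3, Bdkrb1 and Bdkrb2 were not tested. Marker lists of other cell types gave these results on the Illumina. The summed stellate and fibroblast level was 240 to 304 CPM in saline and 167 to 265 in IL-1β mice, with Lrat and Reln lower. The cholangiocyte level was 4.30 to 6.11 and 9.79 to 15.4, with Epcam and Sox9 higher, and the lymphocyte level was 0.586 to 1.82 and 0.380 to 0.980, with Cd79a lower.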

Additional observations from a re-analysis of the deposited data

Results flagged for a closer look

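In 8 of 156 groups of 5 mice (39 members, 2 treatments, both GSNAP tables; 5.13%), the highest or the lowest TMM-scaled count stood apart by Dixon's criterion, and chance alone gives about 1 in 20. The values below are deposited reads. On the Illumina, saline mouse UNT_9584 stood high for F9 (3555 reads against 2604 to 2965) and Tfpi2 (1112 against 515 to 659), IL-1β mouse ILB_9577 stood low for F9 (1653 against 1818 to 1949), and saline mouse UNT_9574 stood high for Tfpi (89 against 67 to 74). On the Ion Torrent, IL-1β mouse ILB_9578 stood high for Fgg (268173 against 184038 to 208632), Pros1 (1019 against 654 to 757) and Cpb2 (12453 against 8463 to 9445), and saline mouse UNT_9575 stood high for Ggcx (1106 against 777 to 860).

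A2m was the only gene of the wider coagulation list with a platform-by-treatment term past the threshold, and the sign of the term depended on the aligner. The Ion Torrent effect was lower than that of the Illumina by −3.13 on the log2 scale with GSNAP (adjusted p = 3.88e-07 by edgeR) and higher by 5.05 with STAR + Bowtie2 (adjusted p = 8.23e-11). The saline counts differed between the tables, at 0 to 5 reads on the Illumina and 22 to 40 on the Ion Torrent with GSNAP, but 79 to 110 and 0 to 8 with STAR + Bowtie2. The IL-1β counts were 1706 to 3478, 1896 to 3792, 1792 to 3571 and 1837 to 3746 in the same order. With STAR the saline counts were 1 to 3 and 0 to 7, and the log2 fold changes 10.07 and 10.15.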

How the results depend on the processing

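The counts of members called higher and lower in each GSNAP table and in all 6 tables stayed within 1.5 times their value under DESeq2, limma-voom, the rank-sum test, RLE or no scaling, both other filters and, for single tables, the other aligners. When an absolute log2 fold change above 1 was required as well, the lower calls came to 3 on the Illumina, 4 on the Ion Torrent and 3 in all 6 tables. Without 1 mouse, the Illumina gave 11 to 12 higher and 14 to 18 lower calls, the Ion Torrent 10 to 11 and 13 to 17, and the calls made in every table were 10 to 11 higher and 11 to 14 lower. The rank-sum test in the other 5 tables, added after the data were seen, called 26 to 30 members, against 28 in the Illumina GSNAP table. The platform-by-treatment term called 0 members in every fit, with or without the replicate block (unadjusted p below 0.05 for 9 and 1 members). Against edgeR, the rank-sum test's set of members called in every table lacked Procr, Serpina5, Adamts13 and F8, each still called in some tables. That set gained F10, F9, Kng1, Plg and Serpinc1. Of single fold changes on the Illumina, only those of members that edgeR called in no table changed sign. By the rank-sum test on unscaled counts these were F2 (−0.0799), F12 (−0.0453), Pros1 (−0.0523), Plau (−0.0693) and Kng2 (−0.11). Without TMM they were F2 (−0.0302), Pros1 (−0.00332), Plau (−0.0201) and Kng2 (−0.0564), and F10, Plg and Proc were also called lower. In the Ion Torrent GSNAP table they were F2 (−0.0755), F12 (−0.0160), Tfpi2 (0.12) and Plau (−0.12), and in the STAR + Bowtie2 table Plau (−0.0491). With 1 mouse left out, Tfpi2 ran from −0.40 to 0.0421, Plau from −0.27 to 0.35 and Ggcx from −0.11 to 0.0118. The cause was not tested. Depth limits F13a1, Serpina5, Procr, Plaur, Plat and Plau most, which have at most 21 reads in any saline mouse on the Illumina.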
